A study of Homo sapiens with 7 samples.

Results

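The 10 genes described here encode cytoplasmic intermediate filament proteins, and they were taken by name from the 19978 genes of the deposited count table: the neuronal subunits NEFL, NEFM, NEFH and INA, vimentin (VIM) and nestin (NES), and the keratins KRT8, KRT18, KRT19 and KRT10. Poly(A) RNA was sequenced from HEK-293, an established human cell line that was made from embryonic kidney with adenovirus DNA and is known to carry transcripts of neuronal, epithelial and mesenchymal genes together. The cells were kept for 48 h in control medium of pH 7.4 with the solvent DMSO (2 samples), in acidified medium of pH 6.6 with DMSO (3 samples, called acidosis), or in medium of pH 7.4 with 10 µM SRPIN340, an inhibitor of the SR protein kinases SRPK, dissolved in DMSO (2 samples). Every group therefore carried DMSO, and each stands for a single line after a single exposure time. The comparisons ask how the filament genes respond to acidified medium and whether inhibition of the SR protein kinases gives a like response.

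Intermediate filaments are rope-like polymers of coiled-coil proteins, and cells of different origin build them from different members of the family. Type I and type II keratins pair in epithelial cells, so that a filament needs a partner of each type. Vimentin (type III) polymerizes by itself in mesenchymal cells and in most cultured lines. Nestin and the neuronal subunits are type IV proteins: nestin of progenitor cells co-assembles with vimentin, NEFL is the core of the neurofilament of axons, NEFM and NEFH carry long phosphorylated tails that space the filaments, and INA (alpha-internexin) is a further subunit that is made early in neurons.

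Library totals lay between 13615816 and 24110460 estimated counts, and the acidosis libraries were the shallower ones (13615816 to 21370143, against 21788457 to 24110460). All 10 genes passed the filter on low counts and were among the 14863 genes tested. Levels are given as CPM, counts relative to a library total that is scaled by TMM (a method that centers most genes between samples). The scaling matters here: the TMM factors were 0.782 to 0.800 in acidosis and 1.17 to 1.21 in the other samples, and with plain library totals the median log2 fold change of all tested genes in acidosis moved from −0.05 to −0.63. Changes are therefore relative to the bulk of genes, and a direction that flips with plain totals is given beside its gene. Markers of each identity were found at 10 CPM or more as a mean over all 7 samples. These were 5 of 15 neuronal ones, among them UCHL1, NCAM1 and MAP2, and 6 of 14 epithelial ones, among them CDH1 and ESRP1. Of the mesenchymal ones 7 of 13 were found, among them FN1 and TWIST1. TUBB3 and SYP, counted among the neuronal ones, were below 10 CPM in control (means 8.70 and 8.39) and above it in acidosis (15.3 and 12.5). MAP2, CDH1 and ESRP1 were above 10 CPM in control (means 23.09, 10.55 and 18.73) and below it in acidosis (7.161, 8.749 and 6.985). The filter on low counts was passed by 12, 10 and 12 of the neuronal, epithelial and mesenchymal markers and by 74.4% of all genes.

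Promoters are shown for genes of both directions in acidosis, VIM and KRT10 of those that increased and NES and INA of those that decreased, so that their composition can be set beside the values. The RefSeq table (GRCh38.p14) held an entry for 5 of the 10 genes, namely VIM, KRT10, NES, INA and KRT8, and not for NEFL, NEFM, NEFH, KRT18 and KRT19. Each line gives the 250 bases before the annotated start, 5′ to 3′ on the gene's strand, and capitals mark a GC box (GGGCGG or CCGCCC) or a TATA box (TATAAA or TTTATA).
VIM (chr10:17227991-17228240, plus strand): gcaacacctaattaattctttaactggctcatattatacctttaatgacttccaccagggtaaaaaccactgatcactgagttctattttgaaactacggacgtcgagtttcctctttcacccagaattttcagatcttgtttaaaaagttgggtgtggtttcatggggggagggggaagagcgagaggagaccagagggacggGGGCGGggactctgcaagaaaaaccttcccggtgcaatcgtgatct
KRT10 (chr17:40822615-40822864, minus strand): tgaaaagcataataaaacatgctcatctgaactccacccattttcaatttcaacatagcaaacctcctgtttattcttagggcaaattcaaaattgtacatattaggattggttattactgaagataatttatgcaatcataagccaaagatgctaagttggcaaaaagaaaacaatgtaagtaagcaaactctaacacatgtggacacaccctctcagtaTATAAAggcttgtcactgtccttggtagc
NES (chr1:156677408-156677657, minus strand): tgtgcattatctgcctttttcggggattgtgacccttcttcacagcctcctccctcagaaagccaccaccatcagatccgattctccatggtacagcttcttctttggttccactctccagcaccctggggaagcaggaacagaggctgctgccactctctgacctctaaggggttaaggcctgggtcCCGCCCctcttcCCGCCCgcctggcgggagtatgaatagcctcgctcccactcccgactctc
INA (chr10:103276888-103277137, plus strand): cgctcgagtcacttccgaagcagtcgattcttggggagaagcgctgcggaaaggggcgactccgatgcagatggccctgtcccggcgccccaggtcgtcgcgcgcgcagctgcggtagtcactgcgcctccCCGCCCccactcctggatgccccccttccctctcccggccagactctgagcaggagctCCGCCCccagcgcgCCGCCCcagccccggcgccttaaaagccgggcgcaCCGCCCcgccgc
The INA window was 72.8% G and C with 4 GC boxes, and the NES window was 58% with 2. The VIM window was 46% with 1 GC box. KRT10 had the lowest content, 34.8%, with no GC box and 1 TATA box whose first base lay 29 bases before the start. Among all 35116 promoters of the table, 42.6% held a GC box and 10.7% a TATA box in the window searched. AP-1 (TGANTCA) and CRE (TGACGTCA) motifs, found in 6.57% and 1.65% of all promoters, did not occur in the windows of these 4 genes or of KRT8. All motifs were searched on both strands, and a match is a description of letters only.

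In acidosis, VIM, NEFM and KRT10 were called higher and NES was called lower, a call being a Benjamini-Hochberg adjusted p under 0.05 in edgeR's quasi-likelihood test with at least a 2-fold change. That is 4 of 10 genes, against 33.5% of all tested genes called in either direction, 14.4% higher and 19.1% lower. Higher calls were 43% of all calls, and 13.5% with plain library totals, where 7 of the 10 genes were called, VIM, NEFM and KRT10 higher and NES, INA, NEFH and KRT19 lower. Of all tested genes 40.5% were called with plain totals, 5.48% higher and 35% lower. Without the fold limit, 5 of the 10 genes rose (VIM, NEFM, KRT10, NEFL, KRT8), 4 fell (NES, INA, KRT19, KRT18) and NEFH did not pass, whereas 66.7% of all tested genes passed, 32.5% higher and 34.2% lower. The median log2 fold change was 0.16 over the 10 genes and −0.05 over all tested genes. The acidosis and control samples did not overlap for any of the 10 genes, and the same held for 76.5% of all tested genes. By calls with TMM, the share of changed filament genes was thus near that of genes at large. By adjusted p alone, by calls with plain totals and by overlap it was above that of genes at large. Whether 10 genes differ from the rest in this was not tested, and the description below is of which ones moved which way.

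**Figure D1:**
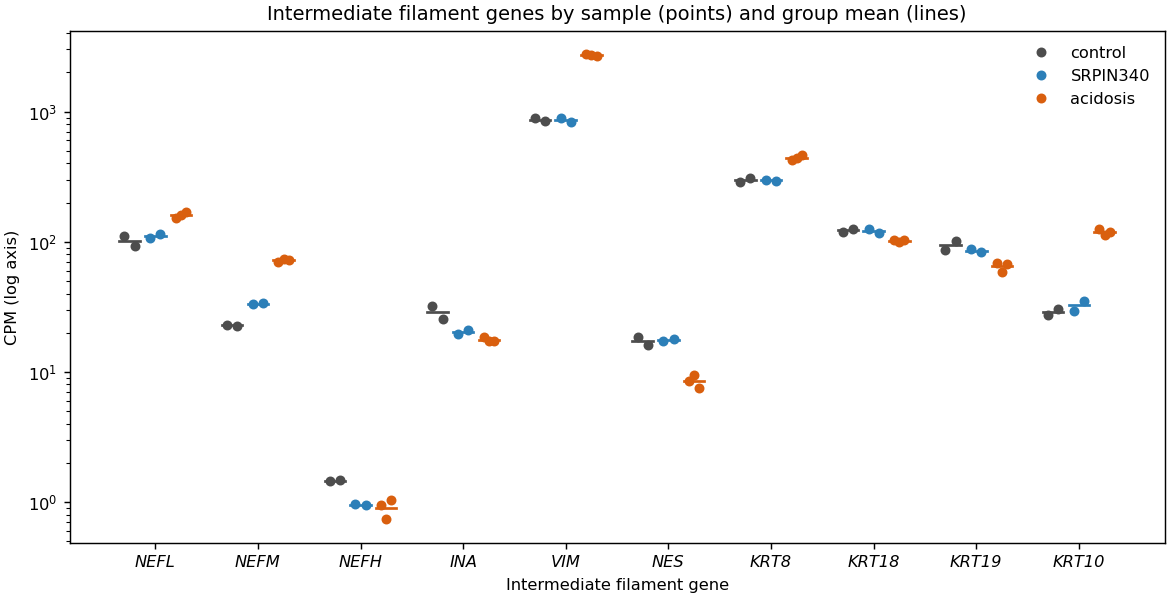
Level of each intermediate filament gene in CPM (log axis) in the 2 control, 2 SRPIN340 and 3 acidosis samples; points are samples and short lines are group means. VIM, KRT10, NEFM, NEFL and KRT8 sit higher in acidosis and the other 5 genes lower, while the SRPIN340 points stand apart from control for NEFM, INA and NEFH only.

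VIM (ENSG00000026025.16, chromosome 10, 17228241 to 17237593, plus strand, GRCh38) had by far the highest level per length of the 10 genes. Its CPM was 891.6 and 842.5 in control, 892.2 and 836.0 in SRPIN340, and 2745, 2723 and 2675 in acidosis. The acidosis values lay close together and far above every other sample. VIM rose 3.13-fold, a log2 fold change of 1.65 (SE 0.0567, edgeR adjusted p = 2.02e-08). It took 0.0995% to 0.104% of all counts in control and 0.209% to 0.218% in acidosis, so it was higher by plain totals as well (log2 fold change 1.07). Among 14862 tested genes with a length, VIM ranked 102 by level per length in control and 74 in acidosis. The gene overlaps the antisense gene VIM-AS1, and the handling of strand in the counting is not given in the sources used here.

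NES (ENSG00000132688.11, chromosome 1, 156668763 to 156677407, minus strand) moved against its assembly partner. Its CPM was 18.62 and 16.11 in control, 17.18 and 17.92 in SRPIN340, and 8.492, 9.457 and 7.567 in acidosis. Every acidosis sample lay below every other sample. NES fell by 1.03 on the log2 scale (SE 0.151, edgeR adjusted p = 1.92e-04), which was 2.04-fold lower. The change was at the edge of the fold limit: it passed the test in every setting, but was −0.93 without control replicate 1 and −0.95 without acidosis replicate 3, and so was not called there.

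The neuronal subunits changed in unlike ways. NEFM and NEFL lie side by side on chromosome 8 with 31.9 kb between them, NEFM (ENSG00000104722.14) at 24913758 to 24919098 on the plus strand and NEFL (ENSG00000277586.4) at 24950955 to 24956721 on the minus strand. NEFM, the medium subunit, had a CPM of 23.09 and 22.61 in control, 33.21 and 33.56 in SRPIN340, and 69.54, 73.54 and 72.23 in acidosis. The 3 groups formed separate steps, with acidosis highest and SRPIN340 between. NEFM rose 3.14-fold in acidosis (log2 fold change 1.65, SE 0.0911, edgeR adjusted p = 2.87e-07).

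NEFL, the core subunit, had a CPM of 111.1 and 92.46 in control, 107.0 and 114.0 in SRPIN340, and 153.3, 161.4 and 169.4 in acidosis. Control and SRPIN340 overlapped, and acidosis lay above both. NEFL rose 1.58-fold (log2 fold change 0.66, SE 0.0933, edgeR adjusted p = 1.47e-04), but with plain library totals the log2 fold change was 0.09 (adjusted p = 0.392). The order of the pair, with NEFM increasing more than NEFL, does not depend on the scaling. Per length of the canonical transcript, the ratio of NEFM to NEFL within a sample was 0.228 and 0.268 in control, 0.340 and 0.322 in SRPIN340, and 0.497, 0.499 and 0.467 in acidosis. The acidosis ratios did not overlap those of control, a log2 difference of 0.98 (exact permutation test, two-sided p = 0.2, the smallest that 2 against 3 samples allow).

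INA (ENSG00000148798.11, chromosome 10, 103277138 to 103290346, plus strand, overlapping NT5C2) went the other way. Its CPM was 31.92 and 25.59 in control, 19.53 and 20.88 in SRPIN340, and 18.47, 17.26 and 17.37 in acidosis. Control was highest in both samples, with a wide gap between them. INA fell by 0.70 on the log2 scale in acidosis (SE 0.131, edgeR adjusted p = 0.00101), short of the fold limit, which it passed with plain totals (−1.27). The ratio of INA to NEFL per length was 0.317 and 0.305 in control, 0.201 and 0.202 in SRPIN340, and 0.133, 0.118 and 0.113 in acidosis. That log2 difference between acidosis and control was −1.36, again with the smallest exact permutation p the design allows (two-sided p = 0.2). Both ratios to NEFL were formed after the values of the genes had been seen.

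NEFH (ENSG00000100285.10, chromosome 22, 29480218 to 29491390, plus strand), the heavy subunit, was close to the lower limit of detection. It had 40.2 and 42.0 estimated counts in control, 25.8 and 25 in SRPIN340, and 16.1, 7.7 and 12.5 in acidosis. The CPM was 1.44 and 1.47 in control, 0.958 and 0.949 in SRPIN340, and 0.950, 0.735 and 1.03 in acidosis, so that control was highest and the other groups overlapped. The log2 fold change in acidosis was −0.68 with a 95% interval from −1.58 to 0.22 (edgeR adjusted p = 0.161). With plain totals it was −1.25 and passed (adjusted p = 0.017). HEK-293 thus carried transcripts of NEFL, NEFM and INA with very little of the heavy subunit in all 3 groups.

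KRT8 and KRT18, the partner keratins of simple epithelia, overlap by 1084 bases on chromosome 12: KRT8 (ENSG00000170421.13, type II) spans 52897187 to 52949954 on the minus strand and KRT18 (ENSG00000111057.11, type I) spans 52948871 to 52952906 on the plus strand. The CPM of KRT8 was 288.1 and 306.8 in control, 297.5 and 294.1 in SRPIN340, and 423.5, 440.1 and 463.3 in acidosis. The CPM of KRT18 was 119.2 and 124.9 in control, 125.2 and 117.3 in SRPIN340, and 102.6, 99.62 and 103.7 in acidosis. The pair parted in acidosis, with KRT8 above and KRT18 below every other sample.

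KRT8 rose 1.49-fold (log2 fold change 0.57, SE 0.0642, edgeR adjusted p = 3.12e-05), but its direction rests on the scaling, since with plain totals the log2 fold change was −0.003 (adjusted p = 0.968). KRT18 fell by 0.26 on the log2 scale (SE 0.0707, edgeR adjusted p = 0.00877). What does not rest on the scaling is their ratio: KRT8 to KRT18 counts stood at 2.42 and 2.46 in control, 2.38 and 2.51 in SRPIN340, and 4.13, 4.42 and 4.47 in acidosis. The log2 difference was 0.83, with no overlap between the groups (exact permutation test, two-sided p = 0.2, the smallest possible with 10 arrangements). GENCODE 44 lists 51 pseudogenes of KRT8 and 68 of KRT18, so reads of either gene may be split with near-identical copies, and the overlap of the genes adds to that uncertainty where strand was not used.

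KRT19 (ENSG00000171345.13, chromosome 17, 41523617 to 41528308, minus strand), the smallest keratin and a further partner of KRT8, followed KRT18. Its CPM was 86.02 and 102.1 in control, 87.98 and 83.13 in SRPIN340, and 68.95, 58.67 and 67.84 in acidosis. All acidosis samples lay below the rest. KRT19 fell by 0.53 on the log2 scale (SE 0.104, edgeR adjusted p = 0.00135), and by 1.10, past the fold limit, with plain totals.

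KRT10 (ENSG00000186395.9, chromosome 17, 40818117 to 40822614, minus strand, overlapping KRT10-AS1), a type I keratin known from the differentiating layers of the epidermis, had the largest change of the 10 genes, except with plain totals, where the log2 fold change of NES (−1.60) was larger in size than that of KRT10 (1.47). Its CPM was 27.16 and 30.54 in control, 29.56 and 35.19 in SRPIN340, and 126.0, 112.8 and 117.9 in acidosis. Acidosis stood far above the other groups, which overlapped. KRT10 rose 4.12-fold (log2 fold change 2.04, SE 0.112, edgeR adjusted p = 2.72e-07).

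**Figure D2:**
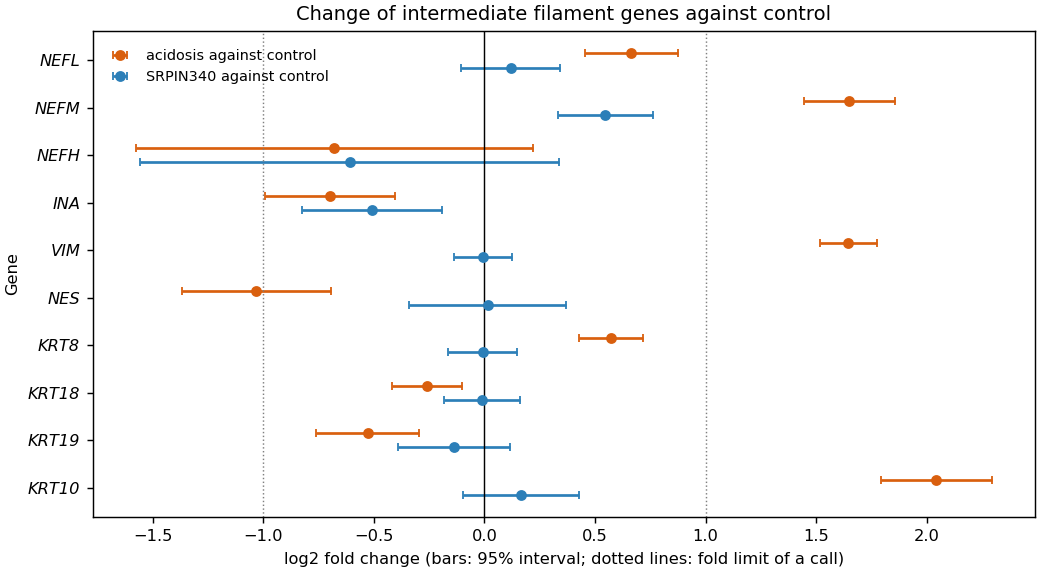
Log2 fold change of each gene against control in acidosis (orange) and with SRPIN340 (blue), from the same edgeR fit; bars are 95% intervals and dotted lines mark the fold limit of a call. In acidosis KRT10, VIM and NEFM lie beyond the upper limit with log2 fold changes of 2.04, 1.65 and 1.65, while with SRPIN340 NEFM at 0.55 and INA at −0.51 have intervals that leave out 0.

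SRPIN340 at pH 7.4 changed little among these 10 genes, whereas KRT17, a filament gene outside them, was called higher (given below). None of the 10 genes was called (0.323% of all tested genes were, 0.128% higher and 0.195% lower), and 1, NEFM, passed the adjusted p without the fold limit (2.3% of all tested genes, 0.767% higher and 1.53% lower). Its samples and those of control did not overlap for NEFM, INA and NEFH, where 54.1% of all tested genes had no overlap. NEFM was 1.46-fold higher with SRPIN340, a log2 fold change of 0.55 (95% interval 0.33 to 0.76, edgeR adjusted p = 0.0284). That result rests on every one of the 4 libraries: with any of the control or SRPIN340 samples left out, the log2 fold change stayed between 0.53 and 0.56 while the adjusted p was 0.115 to 0.251. INA had a log2 fold change of −0.51 (95% interval −0.83 to −0.19) that did not pass in edgeR (adjusted p = 0.103) and did in DESeq2 (adjusted p = 0.0482).

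For the remaining genes the intervals bound what SRPIN340 could have done. VIM had a log2 fold change of −0.005 (95% interval −0.14 to 0.13), KRT8 one of −0.008 (−0.16 to 0.15) and KRT18 one of −0.009 (−0.18 to 0.16). The acidosis value of each of these 3 genes lies outside its SRPIN340 interval, though for KRT8 this holds with TMM and not with plain totals, where acidosis stood at −0.003 and SRPIN340 at 0.03. NES stood at 0.01 (−0.34 to 0.37), which leaves out its acidosis value as well. KRT10 had 0.17 (−0.10 to 0.43), NEFL 0.12 (−0.11 to 0.34) and KRT19 −0.14 (−0.39 to 0.12). NEFH, at −0.61 (−1.56 to 0.34), could not be resolved at its depth. The SRPIN340 and acidosis comparisons share the control samples.

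Set directly against each other, acidosis and SRPIN340 differed for the same 4 named genes that were called against control: VIM, NEFM and KRT10 were called higher in acidosis and NES lower, where 34.6% of all tested genes were called, 14.9% higher and 19.7% lower. Past the adjusted p alone were 5 of the 10 genes higher and 3 lower, against 32.8% and 35% of all tested genes. The samples overlapped for NEFH alone, and 78.3% of all tested genes had no overlap. The log2 differences were 1.65 for VIM, 1.10 for NEFM, 1.88 for KRT10 and −1.05 for NES (edgeR adjusted p = 2.11e-08, 3.13e-06, 4.22e-07 and 1.70e-04). NEFL and KRT8 were higher in acidosis by 0.55 and 0.58, though with plain totals these were −0.07 and −0.03. With plain totals NEFM stood at 0.49 and was not called, and KRT19 was called at −1.01, where 42.3% of all tested genes were called, 5.21% higher and 37% lower. NES was not called without acidosis replicate 3 (−0.97). KRT18 and KRT19 were lower by 0.25 and 0.39 (edgeR adjusted p = 0.0105 and 0.0077), and without SRPIN340 replicate 1 neither passed (adjusted p = 0.0998 and 0.0607). INA at −0.19 and NEFH at −0.07 did not pass (edgeR adjusted p = 0.234 and 0.893), but with plain totals INA passed at −0.80 (adjusted p = 0.000336).

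Levels of different genes were compared per length, as CPM per kilobase of the canonical transcript. In control the order was VIM (402 ± 16.1, SD, n = 2), KRT8 (167), KRT18 (86.4), KRT19 (67.7), NEFL (28.4), KRT10 (13.5), INA (8.85), NEFM (6.98), NES (3.12) and NEFH (0.385), and no neighbors in that order overlapped between samples. In acidosis it was VIM (1260 ± 16.8, SD, n = 3), KRT8 (248), KRT18 (72.2), KRT10 (55.5), KRT19 (46.9), NEFL (45.0), NEFM (21.9), INA (5.45), NES (1.53) and NEFH (0.240). There KRT19 and NEFL overlapped and cannot be ordered, and KRT10 stood above KRT19 and NEFL, which in control were above it. NEFM stood above INA in acidosis and in SRPIN340 (10.2 against 6.22) and below it in control (6.98 against 8.85). The choice of length shifts the middle of this order: over the union of all exons, KRT8, KRT19 and KRT18 came within 39.8 to 43.2 CPM per kilobase of each other in control. In acidosis, KRT10 (54.98) and NEFL (40.95) then stood above KRT18 (33.22) and KRT19 (27.89).

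Among the 10 genes, which leave out KRT17, vimentin made up a larger share in acidosis than in control. VIM made up 52.66% and 49.95% of the summed level per length of the 10 genes in control, 52.0% and 50.8% in SRPIN340, and 72.2%, 72.2% and 70.8% in acidosis. The summed level itself was 786 and 783 CPM per kilobase in control, 796 and 764 in SRPIN340, and 1764, 1751 and 1755 in acidosis. The 4 keratins together held 40.8% and 44.5% in control and 23.7%, 23.5% and 24.9% in acidosis, with KRT10 the exception among them at 1.72% in control and 3.16% in acidosis. These shares depend on the choice of genes. When the 57 other cytoplasmic filament genes were added, VIM held 51.2% and 48.7% in control and 55.3%, 56.1% and 55.9% in acidosis. The keratins as a whole then held 41.0% and 44.4% in control and 41.4%, 40.4% and 40.5% in acidosis, of which KRT17 alone held 0.977% and 0.708% in control and 23.1%, 21.9% and 20.7% in acidosis. Among the 10 genes, the neuronal subunits held 6.14% and 5.23% in control and 3.96%, 4.17% and 4.27% in acidosis, so their share was lower in acidosis although NEFM and NEFL themselves were higher.

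**Figure D3:**
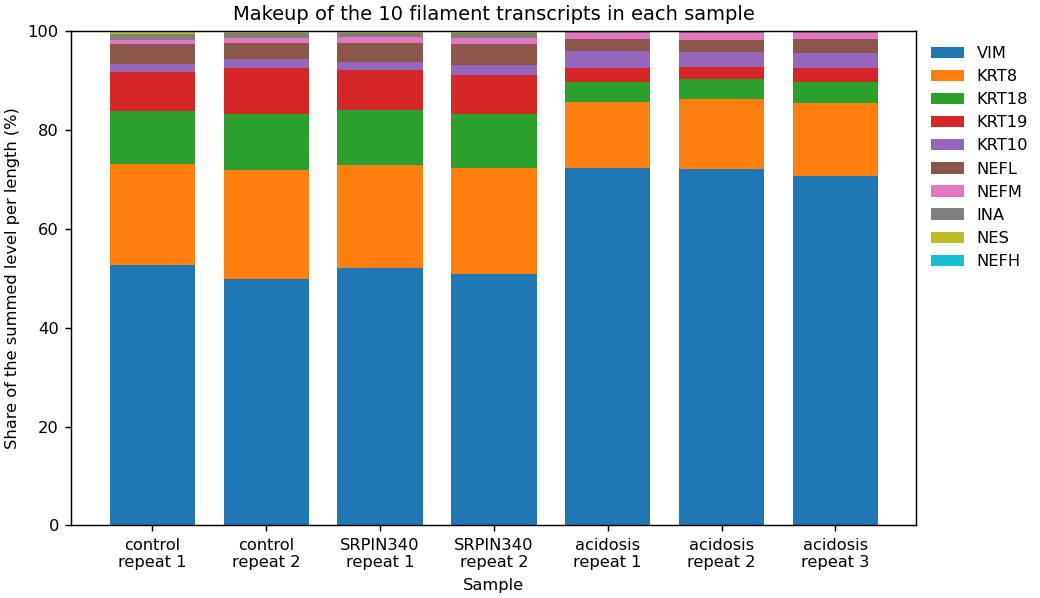
Share of each gene in the summed level per length of the 10 intermediate filament genes (percent), 1 bar per sample; colors are genes. VIM takes 49.95% to 52.66% of the bar in the control and SRPIN340 samples and 70.8% to 72.2% in the acidosis samples.

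Ratios of counts within each sample need no scaling between libraries. KRT8, KRT18 and KRT19 together stood to VIM at 0.553 and 0.634 in control, 0.572 and 0.592 in SRPIN340, and 0.217, 0.220 and 0.237 in acidosis, a log2 difference of −1.40. The 4 neuronal genes together stood to VIM at 0.188 and 0.169 in control, 0.180 and 0.203 in SRPIN340, and 0.0882, 0.0929 and 0.0972 in acidosis, a log2 difference of −0.94. Neither set of ratios overlapped between acidosis and control (exact permutation tests, two-sided p = 0.2 each, the smallest possible, and no value under that can be reached by any of the 6 ratios tested). With SRPIN340 the log2 differences from control were −0.03 and 0.10.

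**Figure D4:**
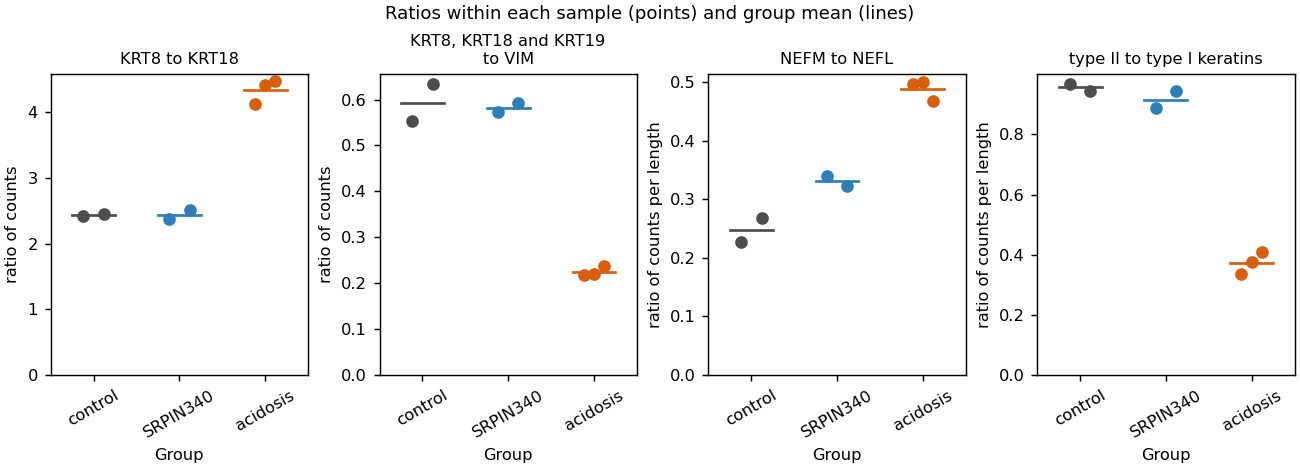
Ratios within each sample: KRT8 to KRT18 counts, the simple keratins KRT8, KRT18 and KRT19 to VIM counts, NEFM to NEFL per length, and 26 type II to 28 type I keratins per length (KRT222 in neither set). Points are samples and lines are group means. Acidosis stands apart from control in all 4 panels, while SRPIN340 stands apart from it for NEFM to NEFL and, narrowly, for type II to type I keratins.

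The rest of the family was followed in lists. Of 57 other cytoplasmic filament genes, 47 were too low to test, of which 30 were at 0 in every sample and no value exceeded 0.431 CPM. The 10 tested genes had 2 called higher and 3 lower in acidosis (14.4% and 19.1% of all tested genes), and their median log2 fold change was −0.30. KRT17, a type I keratin of stressed and basal epithelium, had a CPM of 12 and 8.64 in control, 34.4 and 23.8 in SRPIN340, and 807, 750 and 697 in acidosis (log2 fold change 6.19 in acidosis, edgeR adjusted p = 1.57e-08, and 1.496 with SRPIN340, adjusted p = 0.00762, which was 0.0616 without control replicate 2 and 0.0597 without SRPIN340 replicate 1). SYNM (synemin), which links vimentin filaments to other structures, fell from a mean of 51.9 CPM to 10.9 (log2 fold change −2.27, edgeR adjusted p = 5.89e-07), and KRT222 fell by 2.81 on the log2 scale to below 1 CPM.

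KRT17 also decides the balance of the keratin types. Per length, the 26 type II genes summed stood to the 28 type I genes summed at 0.968 and 0.946 in control, 0.887 and 0.944 in SRPIN340, and 0.334, 0.375 and 0.410 in acidosis, a log2 difference of −1.36 (exact permutation test, two-sided p = 0.2, the smallest possible). With KRT17 left out, the ratios in acidosis were 1.31, 1.49 and 1.46 and those in control 1.015 and 0.976, a log2 difference of 0.51 in the other direction. This ratio was chosen after the values had been seen.

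The nuclear lamins, the intermediate filaments under the nuclear envelope, parted in acidosis. LMNB1 (lamin B1) fell from 228 and 212 CPM in control to 42.8, 44.6 and 44.7 (log2 fold change −2.32, edgeR adjusted p = 1.48e-08). LMNB2 at 0.13 (−0.44 with plain totals) and LMNA, the gene of lamins A and C, at −0.22 did not pass (edgeR adjusted p = 0.0963 and 0.0569). LMNA did pass, lower, with plain totals (−0.79, adjusted p = 3.55e-05), without the filter on low counts (adjusted p = 0.045) and without acidosis replicate 1 (adjusted p = 0.0232). With SRPIN340, LMNB1 stood at 172 and 158 CPM and passed at a log2 fold change of −0.42 (edgeR adjusted p = 0.0348), which was lost without any 1 of the 4 libraries (adjusted p up to 0.304).

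Of 21 linker and desmosome genes, which tie filaments to junctions, 17 were tested in acidosis, with 2 called higher, 1 lower (14.4% and 19.1% of all tested genes), and the median log2 fold change was −0.04. EPPK1 (epiplakin, a keratin-binding plakin) rose from 34.8 to 128 CPM (log2 fold change 1.88) and PNN (pinin, a protein of nuclear speckles and desmosomes) from 174 to 369 CPM (1.09, or 0.52 with plain totals). DSC1 (desmocollin 1) had few counts: 11 and 9 in control and 1, 0 and 1 in acidosis, 7-fold higher in control with an exact counting interval from 1.7 to 61.8, and did not pass in DESeq2 (adjusted p = 0.0728) or without control replicate 1 (adjusted p = 0.0702). PPL (periplakin) was called with SRPIN340, from 13.1 and 15.9 CPM to 27.97 and 30.75 (log2 fold change 1.02, edgeR adjusted p = 0.0354), and did not pass without any 1 of the 4 libraries (adjusted p = 0.12 to 0.278).

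Of 27 genes of filament assembly, transport and turnover, all were tested in acidosis, with 4 called higher, 8 lower and a median log2 fold change of −0.17, against 14.4% and 19.1% of all tested genes called. CRYAB (alpha-B-crystallin, a small heat shock protein that binds filaments) had 2 counts in each control library, 11 and 4 in SRPIN340, and 152, 109 and 101 in acidosis. The ratio of acidosis to control was 129 with an exact counting interval from 50.1 to 477. SYNC (syncoilin, a filament protein known from muscle) and FAM83H, a keratin-binding scaffold, fell, with log2 fold changes of −3.06 and −1.98 (edgeR adjusted p = 7.10e-05 and 8.60e-07). SYNC had 103.1 and 66.9 estimated counts in control and few in acidosis (5.3, 4.4 and 5.3), with a 95% interval from −3.93 to −2.19.

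The marker lists of the other identities were read beside the filament genes. The summed CPM of the 13 mesenchymal markers was 1199 to 1362 in control, 1243 to 1248 in SRPIN340 and 2373 to 2501 in acidosis, and 5 of 12 tested genes were called higher with none called lower (14.4% and 19.1% of all tested genes), among them SNAI2 (log2 fold change 2.22), ZEB1 (1.29) and TWIST1 (1.28), 3 transcription factors of the mesenchymal program. With plain totals ZEB1 and TWIST1 stood at 0.72 and 0.71, short of the fold limit, and SNAI2 at 1.64. FN1 and COL1A1, the others called, stood at 1.05 and 1.02 with TMM, and plain totals lower such values by a scaling shift of 0.575. Of the 5 genes only SNAI2 then stays past the fold limit, where 5.48% of all tested genes were called higher. The count of 5 thus rests on the scaling. COL3A1, a fibrillar collagen, passed lower at −0.97 without being called (edgeR adjusted p = 0.0142), and did not pass without control replicate 1 or 2 (adjusted p = 0.052 and 0.0555). Most of the sum was FN1 (fibronectin), at 855 to 989 CPM in control and 1853 to 1939 in acidosis. Without FN1 the sum was 344 to 373 in control and 520 to 562 in acidosis. The 14 epithelial markers summed to 295 to 305 CPM in control, 342 to 344 in SRPIN340 and 471 to 500 in acidosis. With plain totals the sums were 349 to 357.5, 413 to 416 and 368 to 400, so that SRPIN340 was highest. The largest part of the epithelial sum was EPCAM, at means of 143.6 CPM in control, 162.7 in SRPIN340 and 262.2 in acidosis (TMM). CLDN4 (claudin 4) was called higher at 2.31 (1.63 without control replicate 1 and 3.63 without control replicate 2). ESRP1, an epithelial splicing regulator, was called lower at −1.44. Of 10 tested genes 4 passed the adjusted p higher and 1 lower (32.5% and 34.2% of all tested genes). Those higher were CLDN4, OCLN (0.93), EPCAM (0.87) and ESRP2 (0.58, about the size of the scaling shift). The 15 neuronal markers summed to 390 to 396 CPM in control, 347 to 357 in SRPIN340 and 483 to 487 in acidosis, with 1 gene called, MAP2 (microtubule-associated protein 2), which fell from 23.1 to 7.16 CPM (log2 fold change −1.70). Most of the neuronal sum was UCHL1, at means of 257.2 CPM in control, 206.5 in SRPIN340 and 282.5 in acidosis. The lower sum with SRPIN340 thus follows that gene and does not describe the list. The direction of the neuronal sum rests on the scaling: with plain totals it was 461 to 464 CPM in control and 378 to 387 in acidosis. Of 12 tested neuronal markers 3 passed the adjusted p higher and 2 lower (32.5% and 34.2% of all tested genes). Those higher were NCAM1, TUBB3 (0.82) and SYP (0.58, about the size of the scaling shift), and those lower were MAP2 and SNAP25. NCAM1, a neural adhesion molecule, went from 78.4 to 153 CPM (log2 fold change 0.96, edgeR adjusted p = 4.75e-06), and SNAP25, a synaptic protein, fell by 0.80 on the log2 scale (edgeR adjusted p = 0.0105, and 0.0691 without control replicate 1). The neuronal markers STMN2, ELAVL4 and DCX and the epithelial markers RAB25, GRHL2, CDH16 and PAX8 were below the filter, with DCX and CDH16 at 0 in every sample. The part of a changed cell makeup in the filament values was not tested, and in bulk RNA fewer cells with a transcript cannot be told apart from less of it per cell.

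**Figure D5:**
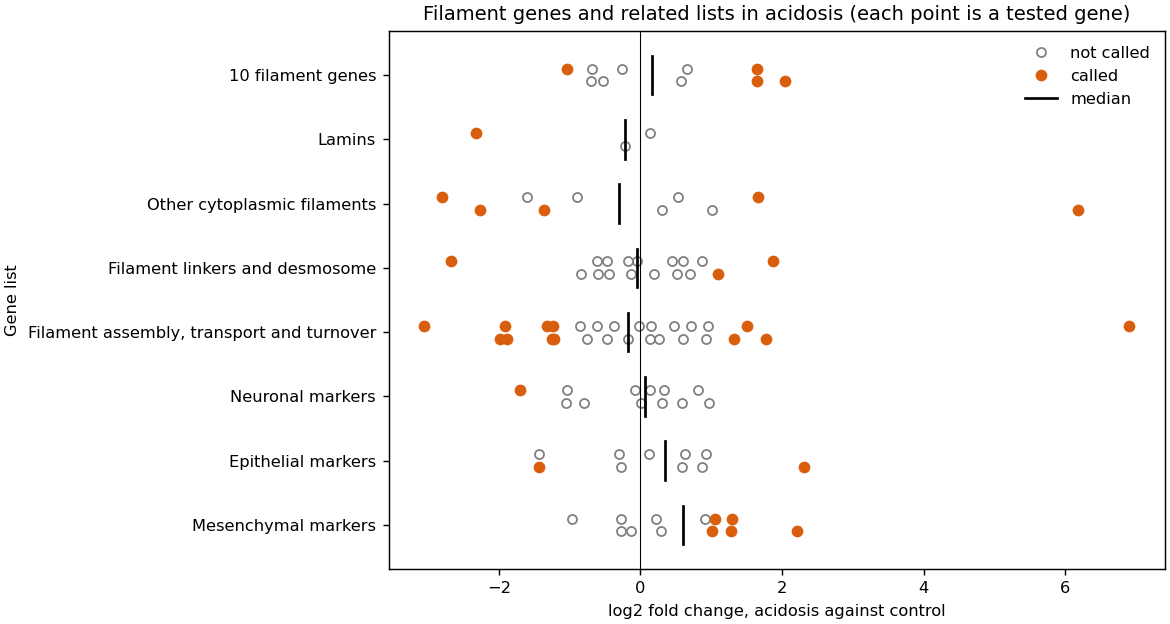
Log2 fold change in acidosis against control of the 10 intermediate filament genes and of the tested genes of 7 related lists; each point is a gene, filled points were called, and the black line is the median of the list. List medians lie between −0.30 and 0.60, and the points farthest to the right are KRT17 at 6.19 among other cytoplasmic filaments and, among the assembly genes, CRYAB, whose fitted value rests on 2 counts in each control library.

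By pattern over the 7 samples, the genes most like VIM among 10118 genes of at least 10 CPM were ZNF592, PARP2 and AP2B1. Their root mean square differences from VIM in centered log2 CPM were 0.0406, 0.0414 and 0.0430. ZNF592 rose from a mean of 76.5 CPM in control to 229 in acidosis, PARP2 from 54.6 to 166 and AP2B1 from 513 to 1537.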

How the data were processed

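Per the labels and the study's methods, reads were trimmed with Trimmomatic 0.39 and Trim Galore 0.6.6 and quantified with Salmon 1.5.1 against a Gencode GRCh38.p13 transcriptome. The authors used tximport to obtain the deposited values, estimated counts for each gene that have decimals and no normalization across libraries. The tximport scaling option is not given in the sources used here.

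Here the estimated counts were rounded and tested with edgeR 4.0.16 (quasi-likelihood, TMM, filterByExpr) in R 4.3.3, with all 7 samples in 1 fit and Benjamini-Hochberg adjustment over 14863 genes. The tests were checked on simulated counts with few changed genes, as many higher as lower. That check does not bear on the choice of scaling in acidosis. DESeq2 1.42.0, RLE factors, plain totals, no filter, 2 groups only, a replicate block, no fold limit and leaving out each sample were the alternatives. Fold changes carry a standard error from the test statistic. Figures were drawn with matplotlib 3.10.9. CPM are TMM-scaled without a prior count, and counting intervals cover counting error only. GENCODE 44 gave positions and lengths, and 19977 of 19978 identifiers matched.

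Samples were grouped by their titles. The methods call the samples of a group biological repeats, each with 3 replicates, whereas the table has 1 column per sample, and how the replicates were combined is not given in the sources used here. P-values measure the spread between these samples. Replicate libraries differed by more than sampling noise (chi-square per degree of freedom 6.97 to 12.4).

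The genes and lists were chosen with earlier results of these data known. Named beside the 10 genes are, per list, the 3 called genes with the largest change in acidosis, those called with SRPIN340, lamins and other filaments of at least 10 CPM, and the 3 genes most like the most abundant member. LMNB1 with SRPIN340, COL1A1, COL3A1, EPCAM, OCLN, ESRP2, NCAM1, SNAP25, TUBB3 and SYP were named after their values were seen. So were the markers given as examples over 10 CPM and the 7 markers below the filter. Exon usage was not analysed here.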

Additional observations from a re-analysis of the deposited data

How the results depend on the processing

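Of 390 alternative values of the 10 genes, 363 kept their direction and their side of adjusted p = 0.05 (fold limit aside), 16 reversed, 8 lost and 3 gained significance. The 390 include fits without a sample of the group not compared, which bear on a comparison only through the shared fit. With the fold limit, 6 values lost a call and 4 gained one. With plain totals, 7 genes were called in acidosis (3 higher, 4 lower), and 13.5% of the calls were higher, against 43% with TMM. Between acidosis and SRPIN340, 12.3% of the calls with plain totals were higher. Reversals with plain totals were KRT8 in acidosis (−0.003051), VIM (0.03524), KRT8 (0.03154) and KRT18 (0.03027) with SRPIN340, NEFL (−0.0691) and KRT8 (−0.03459) between acidosis and SRPIN340, and LMNB2 in acidosis (−0.4429). With single samples left out, values near 0 with SRPIN340 crossed it: NEFL (−0.009923 to 0.257), VIM (−0.05158 to 0.04153), NES (−0.08808 to 0.1229), KRT8 (−0.05272 to 0.03588) and KRT18 (−0.05616 to 0.03672), as did NEFH between acidosis and SRPIN340 (−0.1586 to 0.05319, reversed without acidosis replicate 2). The cause was not tested.

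Without the fold limit, 9917 genes and 9 of the 10 passed in acidosis, 342 and 1 with SRPIN340, and 10084 and 8 between the treatments. Left-out samples gave 4632 to 5010 calls and 3 to 4 of the 10 in acidosis, 11 to 66 calls with SRPIN340 (48 with all samples, 11 without SRPIN340 replicate 1) and 0 of the 10, and 4795 to 5187 calls and 3 to 4 of the 10 between the treatments. NEFM, LMNB1 and PPL with SRPIN340 depended on each of 4 libraries. The VIM share moved over 49.95% to 52.66% in control, 50.79% to 52.04% with SRPIN340 and 71.48% to 72.22% in acidosis, and with the length of all exons was 48.05%, 47.98% and 67.87%. With the other cytoplasmic filament genes added, after the data had been seen, the control, SRPIN340 and acidosis shares were 49.95%, 49.18% and 55.76%. The log2 differences of the ratios ranged over 0.8101 to 0.8672 for KRT8 to KRT18, −1.019 to −0.8638 for neuronal genes to VIM, −1.497 to −1.302 for simple keratins to VIM, 0.8656 to 1.099 for NEFM to NEFL, −1.428 to −1.311 for INA to NEFL, and −1.433 to −1.287 for type II to type I keratins (0.5102 with KRT17 left out).

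Samples share only a repeat number, which the labels tie to no batch, and the correlation of deviations of same-numbered samples was −0.293 to 0.123. With the replicate block, 27 genes were called with SRPIN340, and NEFM (adjusted p = 0.104), PPL and LMNB1 did not pass; NES was −0.96 in acidosis and −0.97 between the treatments and so not called. The 2 or 3 samples a group and the low counts of NEFH limit what can be resolved.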
